A study of Mus musculus with 12 samples.

Results

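The genes of the transforming growth factor beta (TGF-β) and bone morphogenetic protein (BMP) pathway were followed in cultured mouse muscle fibroblasts given aldosterone, the agonist of the mineralocorticoid receptor (MR). The set is a fixed list of 50 gene symbols, made up of ligands, receptors, SMAD proteins, antagonists and ID genes. It was chosen with earlier results of these data known. Each of the 50 was found once in every table, out of 28995 genes present in any of the 3 tables. The fibroblasts were taken from the hindlimb muscles of wild-type mice (C57/BL10) at postnatal day 3, and all of them were grown for the last day before treatment in medium with charcoal-stripped serum, which lacks steroids. They were then kept for 48 hours with 1 µM aldosterone, with 1 µM spironolactone, an MR antagonist, or with the DMSO vehicle, and bulk RNA was sequenced from 4 libraries per treatment. Cells of 2 mice were used, with 2 plates of each mouse under each treatment. The labels give every library a sample number (1 or 2) and a replicate number, and it is not stated which of these is the mouse, so p-values measure the spread between these libraries, which may be partly technical. Within each treatment, replicates 1 and 2 below carried sample number 1, and replicates 3 and 4 carried sample number 2. The cells had been selected by adherence to plastic, and 1 dose and 1 time point were measured.

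Ligands of this family are secreted as dimers, and TGF-β itself is held in the matrix in a latent complex with LTBP proteins. A ligand joins type II and type I receptor kinases, which phosphorylate SMAD2 and SMAD3 for TGF-β and activin or SMAD1, SMAD5 and SMAD9 for BMP, and these enter the nucleus with SMAD4. In muscle, the pathway is known for driving matrix production by fibroblasts and for limiting muscle growth through myostatin and activin, and secreted antagonists such as follistatin, noggin and gremlin keep ligands from their receptors.

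Libraries held between 19136923 and 30219185 reads on genes. The steroid targets *Fkbp5* and *Tsc22d3*, induced by corticosteroid receptors, rose with aldosterone by 4.26 and 2.69 on the log2 scale (limma adjusted p = 4.02e-15 for both). The 10 fibroblast marker genes summed to between 6433 and 6936 CPM (reads scaled to library size) per kilobase of gene in vehicle libraries and to between 5769 and 6391 with aldosterone. Of 8 measured macrophage markers, 7 were under 1 CPM per kilobase in every treatment. Of 9 endothelial markers, 8 were under 1, and their sum was between 4.16 and 4.65 in vehicle and between 5.67 and 6.06 in aldosterone libraries, with a rise of *Kdr*, a receptor for vascular growth factor (log2 fold change 1.88, limma adjusted p = 0.00183). The sum of 10 myogenic markers lay between 13.3 and 19.2 in vehicle and between 4.88 and 10.5 in aldosterone libraries, with a fall of the muscle actin gene *Acta1* (log2 fold change -1.26, limma adjusted p = 9.94e-04). Mural markers summed to 44.8 to 63.6 and 35.6 to 57.0, Schwann cell markers to 6.63 to 8.95 and 8.62 to 12.8, and cartilage markers to 131 to 302 and 193 to 397, in vehicle and aldosterone libraries in that order. By limma, 2 of the 10 fibroblast markers rose and 1 fell, and 2 and 7 did with the sample number block described below. Of 6 cartilage markers 1 rose and 1 fell (3 and 2 with the block), 1 of 6 Schwann cell markers rose in both fits, and 3 of 7 mural markers fell with the block only. Endothelial markers rose in 1 of 9 by limma and in 2 of 9 with the block. Against spironolactone, 3 of 8 measured endothelial markers were higher with aldosterone in both fits. What part these cells had in the results was not tested, and in bulk RNA a change in the share of a cell type cannot be told apart from a change in RNA per cell.

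In vehicle-treated fibroblasts, the pathway was expressed at most of its steps. The median level of the 50 genes was 13.1 CPM per kilobase, against 0.383 over all 28995 genes. *Id3*, which encodes an inhibitor of DNA binding by other transcription factors, had the highest level, with 154, 132, 107 and 111 CPM per kilobase in the 4 vehicle libraries. The co-repressor gene *Ski*, whose product holds SMADs inactive on DNA, followed with 99.1, 95.9, 89.8 and 98.0. Ranges of these genes did not overlap, while 39 of the 49 pairs of neighbours in the order of levels did overlap.

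Among ligands, *Tgfb3* had the highest level, with 86.6, 84.6, 65.5 and 67.1 CPM per kilobase, and it made up 78.8% ± 3.73 (SD, n = 4) of the summed level of the 3 TGF-β genes. *Inhba*, the activin βA subunit, and *Bmp4* were next, at 52.5 ± 11.7 and 42.2 ± 10.8 CPM per kilobase (SD, n = 4). At the other end, the myostatin gene *Mstn* was at 0.0247 ± 0.0293 and *Bmp7* at 0.0513 ± 0.0478, so neither was clearly detected, and both were under a mean of 10 normalized counts. The TGF-β type II receptor gene *Tgfbr2* led the receptors with 31.7, 30.0, 45.7 and 47.6 CPM per kilobase, higher in the libraries of sample number 2. The matrix gene *Ltbp2* led its class with 97.0, 96.7, 64.1 and 69.2, and here the libraries of sample number 1 were higher. The BMP antagonist *Grem1* was at 53.3, 49.5, 38.3 and 34.4, again higher in sample number 1. *Smad4* encodes the partner shared by the SMADs that receptors phosphorylate. It was the highest of the signalling SMADs and varied little between libraries, at 28.6, 28.0, 27.3 and 28.5 CPM per kilobase.

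**Figure D1:**
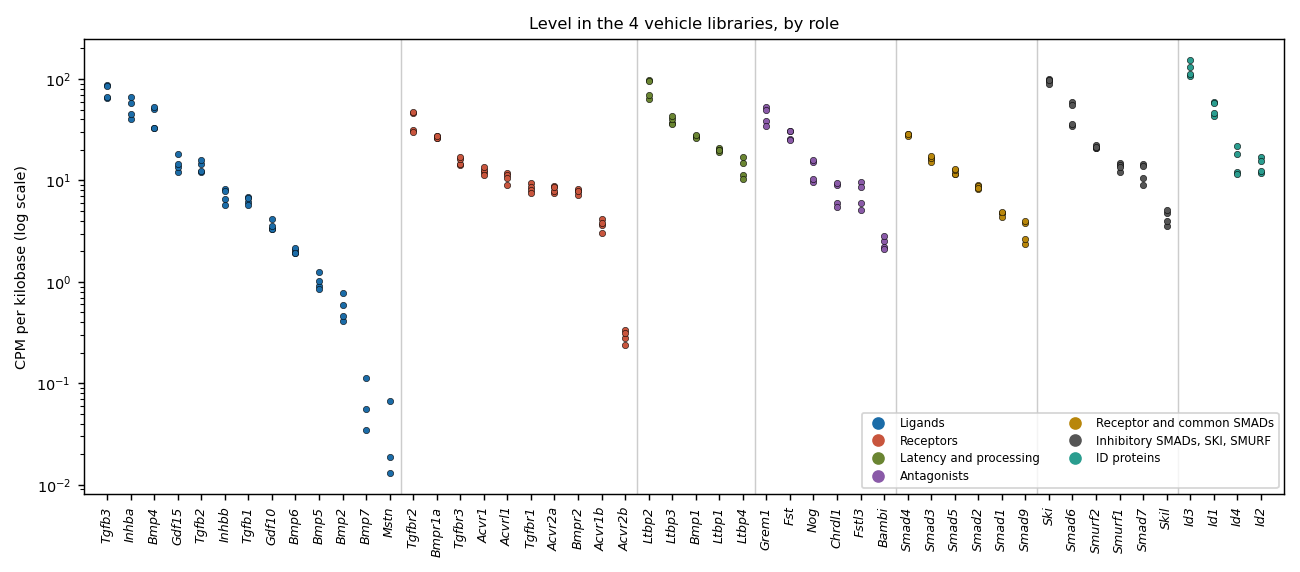
Level of the 50 genes in the 4 vehicle libraries, in CPM per kilobase on a log axis, grouped by role and ordered by mean within a role, with 1 point per library. Libraries with a value of 0 (*Bmp7*, *Mstn*) are not drawn, and *Id3*, *Ski*, *Ltbp2* and *Tgfb3* sit highest.

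Genes of the pathway changed in both directions with aldosterone, and how many passed depended on whether the sample number was in the fit. Against vehicle, 8 of the 50 genes rose and 5 fell at an adjusted p of at most 0.05 (limma on log2 of the normalized count + 1, adjusted over all 27319 genes of the table), which is 16% and 10%. Over all genes tested, 5.68% rose and 4.74% fell. These genes are mostly well expressed, and among the 15245 genes whose mean was 10 normalized counts or more, the shares were 9.65% and 8.09%, where 48 of the 50 were counted. As the set was chosen with earlier results known, its shares are a description and not a test. The genes that rose were the co-receptor *Tgfbr3*, the receptors *Acvrl1* and *Acvr1b*, the ligands *Inhbb* and *Bmp6*, the antagonist *Fst*, and *Id4* and *Id1*. Those that fell were the ligands *Gdf15* and *Gdf10*, the antagonist *Nog*, the signal transducer *Smad3* and the latency gene *Ltbp1*. *Tgfbr3* and *Id4* also passed a log2 fold change of 1, as did 1.4% of all genes in that direction, and 0 of the 50 passed both thresholds downward (0.666% of all genes did), *Gdf15* being past a log2 fold change of -1 only without vehicle replicate 1 (-1.01). The median log2 fold change of the 50 was -0.07, and that of all genes was -0.01. All 4 aldosterone libraries were above all vehicle libraries in 7 of the 50 genes and below them in 6, while 7.55% and 6.9% of all genes were so separated. The last shares include genes of low counts and were not computed for well expressed genes alone.

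Same-numbered libraries deviated together, so the fit was repeated with a block on the sample number. It called 28 of the 50 genes, 11 higher and 17 lower, including all 13 called without it. The error of this fit comes largely from libraries of the same sample number. If that number is the mouse, its p-values measure the spread between plates more than that between mice. With the block, 8.68% of all genes were higher and 8.02% were lower. The 15 added genes were *Fstl3*, *Ltbp4* and *Smad9* among those higher, and *Tgfb1*, *Bmp4*, *Bmp5*, *Inhba*, *Bmpr1a*, *Ltbp3*, *Chrdl1*, *Grem1*, *Smad2*, *Smad6*, *Ski* and *Skil* among those lower. When libraries were instead averaged per sample number, which leaves 2 values per treatment, *Tgfbr3*, *Bmp6*, *Fst*, *Gdf15* and *Smad3* passed by limma. *Acvrl1*, *Acvr1b*, *Inhbb*, *Gdf10*, *Nog*, *Ltbp1*, *Id1* and *Id4* did not pass there, nor did any of the 15 genes added by the block. The plot of fold changes by role sets both fits side by side.

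**Figure D2:**
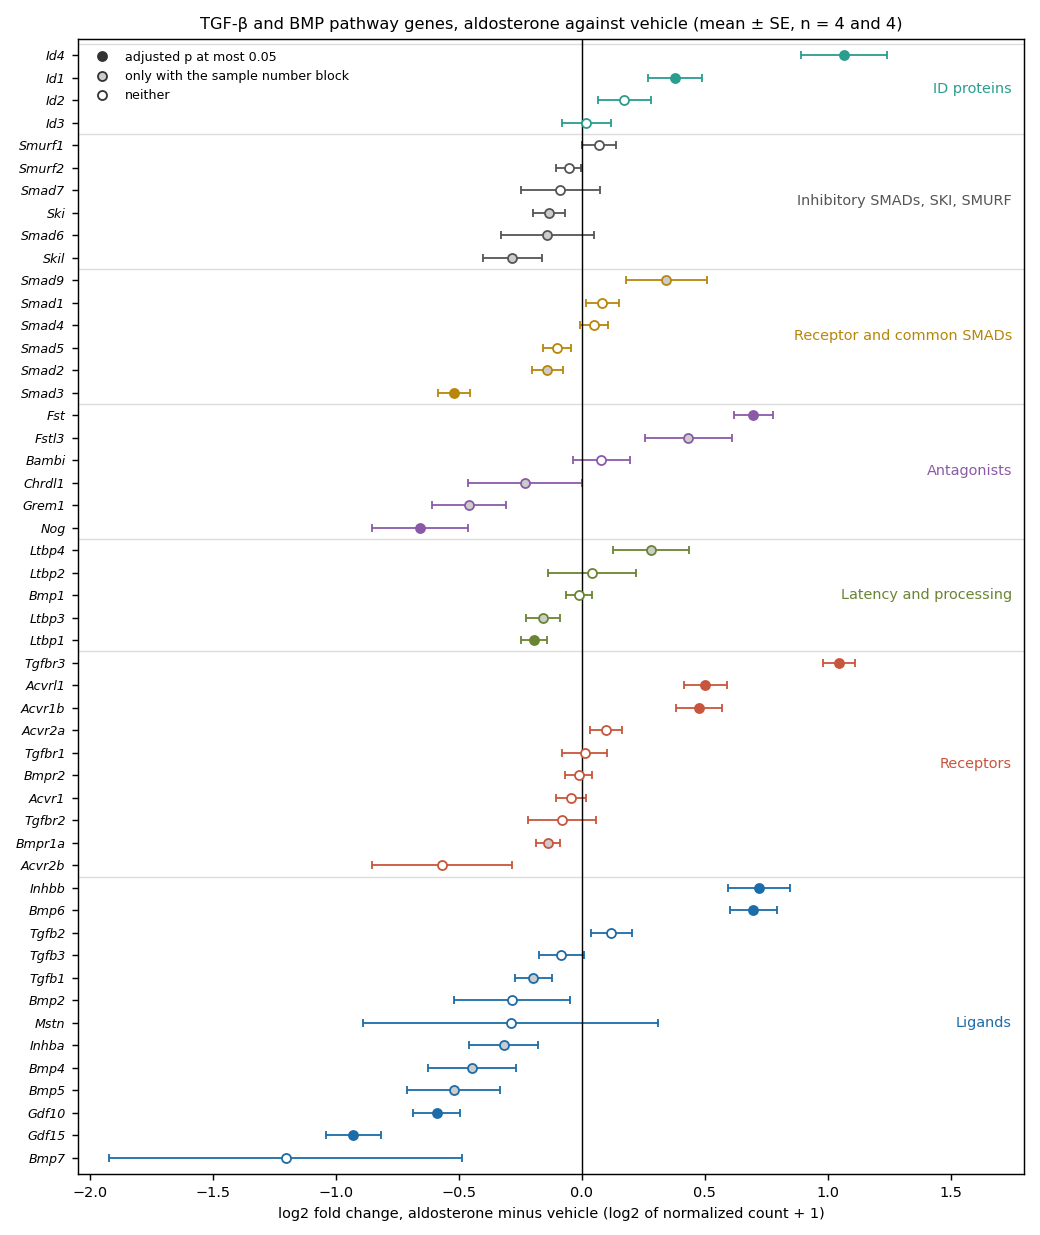
Log2 fold change of each of the 50 genes, aldosterone minus vehicle, with its SE (n = 4 libraries per treatment), grouped by role. Filled points are the 13 genes called by treatment alone, grey points the 15 called only with the sample number block, and open points the rest, where *Tgfbr3* and *Id4* lie farthest to the right among called genes and *Gdf15* farthest to the left.

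Positions of the called genes are those of the tables, on the mm39 build. *Acvrl1* (chr15:101026403-101043217) and *Acvr1b* (chr15:101071948-101111565) are neighbours on the plus strand, with 28730 bases between them, and both rose. *Bmp6* (chr13:38529083-38684278, plus strand), *Id4* (chr13:48414704-48419502, plus strand) and *Fst* (chr13:114588826-114595487, minus strand) share chromosome 13 but lie far apart. *Tgfbr3* is at chr5:107254436-107437495 and *Smad3* at chr9:63554049-63665276, both on the minus strand. All are protein-coding, and counts cover their exons, so the values do not separate transcripts of a gene.

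Promoters from RefSeq (GRCm38.p6, 250 bases before to 50 after the start) were available for 35 of the 50 genes, in 42 windows. They are shown for the called genes that hold either of a pair of motifs searched on both strands, the steroid receptor hexamer AGAACA and the BMP-responsive GC-rich SMAD element GGCGCC, with each match in capitals. The hexamer was in 4 of the 42 windows (9.52%) and in 19.0% of all 32851 windows of the table, and of the called genes with a promoter only *Inhbb* held it. The GC-rich element was in 15 of the 42 windows (35.7%) and in 11.9% of all windows. These windows are rich in G and C (64.3% to 79.7% in those shown), and a match is a description of the letters and not a bound site. The full steroid element, which is the hexamer facing its reverse complement across 3 bases, was in 0 of the 42 windows and in 3 of all. The SMAD motif GTCT was in 36 of the 42 windows (85.7%, against 88.0% of all) and the palindrome GTCTAGAC in 1, the promoter of *Smad6* (0.213% of all). The sequences are given 5′ to 3′ on the strand of the gene.
Inhbb (chr1:119422199-119422498, minus strand, capitals mark AGAACA): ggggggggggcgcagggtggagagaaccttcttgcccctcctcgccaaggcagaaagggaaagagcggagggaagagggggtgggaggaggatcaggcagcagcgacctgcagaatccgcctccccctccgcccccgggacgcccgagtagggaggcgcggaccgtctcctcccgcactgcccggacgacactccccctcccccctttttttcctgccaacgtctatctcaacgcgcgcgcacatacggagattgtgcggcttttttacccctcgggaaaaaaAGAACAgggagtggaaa
Id4 (chr13:48260866-48261165, plus strand, capitals mark GGCGCC): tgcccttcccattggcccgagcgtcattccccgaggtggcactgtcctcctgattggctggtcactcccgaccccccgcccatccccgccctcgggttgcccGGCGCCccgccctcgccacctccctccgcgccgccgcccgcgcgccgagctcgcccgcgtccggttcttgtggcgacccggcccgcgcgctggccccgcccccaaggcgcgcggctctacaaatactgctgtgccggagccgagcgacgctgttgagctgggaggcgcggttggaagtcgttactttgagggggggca
Acvr1b (chr15:101173822-101174121, plus strand, capitals mark GGCGCC): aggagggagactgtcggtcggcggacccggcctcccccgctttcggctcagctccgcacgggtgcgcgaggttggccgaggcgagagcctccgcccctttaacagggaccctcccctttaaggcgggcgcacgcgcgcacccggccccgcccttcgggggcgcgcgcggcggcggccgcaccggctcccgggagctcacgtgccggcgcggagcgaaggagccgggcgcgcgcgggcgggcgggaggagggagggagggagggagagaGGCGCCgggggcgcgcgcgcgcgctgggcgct
Gdf10 (chr14:33923337-33923636, plus strand, capitals mark GGCGCC): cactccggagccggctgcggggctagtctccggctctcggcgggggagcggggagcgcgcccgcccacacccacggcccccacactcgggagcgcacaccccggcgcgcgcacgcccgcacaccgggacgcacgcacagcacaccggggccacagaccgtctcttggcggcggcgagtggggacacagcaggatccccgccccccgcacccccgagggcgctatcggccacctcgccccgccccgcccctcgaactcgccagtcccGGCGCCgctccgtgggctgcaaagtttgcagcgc
*Inhbb*, *Id4* and *Acvr1b* rose with aldosterone and *Gdf10* fell, so genes of both directions held the GC-rich element. It was in promoters of 2 of the 4 higher genes and 1 of the 4 lower genes that had a promoter.

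Of the 13 ligand genes, 2 rose and 2 fell with aldosterone. *Inhbb*, whose product is the βB subunit of activin B, had normalized counts of 833, 796, 588 and 663 with vehicle and of 1473, 1316, 1012 and 975 with aldosterone. No vehicle library reached an aldosterone library, and in each treatment sample number 1 was the higher (log2 fold change 0.72 ± 0.13 (SE, n = 4), limma adjusted p = 0.0011). The adjusted p of *Inhbb* was 0.0716 without aldosterone replicate 2, 0.0527 without vehicle replicate 3 and 0.0706 without vehicle replicate 4. *Inhba* was at 8877, 10027, 6171 and 6903 with vehicle and at 7332, 7520.0, 5036 and 5645 with aldosterone, and the ranges overlapped because the sample numbers differed. Its log2 fold change of -0.32 passed with the sample number block (limma adjusted p = 3.81e-06) and not without it (limma adjusted p = 0.202). The share of *Inhbb* in the summed level per length of the β subunit genes was 12.0% ± 0.93 with vehicle, 21.9% ± 1.43 with aldosterone and 13.2% ± 0.69 with spironolactone (SD, n = 4), and the aldosterone libraries did not overlap the others.

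*Bmp6*, a BMP that also controls iron balance, had counts of 190.4, 178, 200.1 and 177 with vehicle and of 315, 281, 328 and 287 with aldosterone. The groups were clearly apart (log2 fold change 0.70 ± 0.09 (SE, n = 4), limma adjusted p = 9.19e-05). *Bmp6* overlaps *Txndc5* on the other strand, which had a mean of 14711 normalized counts against 245 for *Bmp6*, and a log2 fold change of -0.07 (limma adjusted p = 0.524). Since it is not stated whether the counting used strand, the level of *Bmp6* is uncertain. *Bmp4*, which like *Bmp6* signals through BMP type I receptors, was at 1759, 1767, 2702 and 2809 with vehicle and at 1236, 1288, 1997 and 2151 with aldosterone. Aldosterone was lower within each sample number, while the groups overlapped (log2 fold change -0.45, limma adjusted p = 0.151, and 8.34e-09 with the sample number block). *Bmp5* had a log2 fold change of -0.52 (limma adjusted p = 0.105, and 0.0323 with the block).

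*Gdf15*, a stress-induced cytokine that acts on the brainstem through its own receptor and is a distant member of the family, fell most among the called genes. Its counts were 540.3, 809.9, 607 and 631 with vehicle and 323, 377, 354 and 294 with aldosterone, without overlap (log2 fold change -0.93 ± 0.11 (SE, n = 4), limma adjusted p = 2.62e-05). *Gdf10*, also called BMP3b and close to BMP3, had 410.2, 411, 447 and 509 with vehicle. With aldosterone it had 273, 280.4, 337 and 288, all lower (log2 fold change -0.59 ± 0.10 (SE, n = 4), limma adjusted p = 4.70e-04). The TGF-β genes themselves did not pass by treatment alone. *Tgfb3* had counts of 6989, 6823, 5311 and 5377 with vehicle and 6468, 5934, 5385 and 5208 with aldosterone, which overlapped (log2 fold change -0.08 ± 0.09, limma adjusted p = 0.674). *Tgfb2* was at 0.12 on the log2 scale (limma adjusted p = 0.479), an average of opposite moves. Its counts were 1668, 1717, 2014 and 2166 with vehicle and 2273, 2069.6, 1875 and 1973 with aldosterone. They rose in sample number 1 and fell in sample number 2 (limma unadjusted p = 1.85e-04 for the difference between sample numbers, adjusted p = 0.329). *Tgfb1* was at -0.20 (limma adjusted p = 0.129, and 0.0373 with the block). *Bmp2* (log2 fold change -0.29, limma adjusted p = 0.567), *Bmp7* and *Mstn* did not pass in either fit, and the last 2 were at too few reads to compare.

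Of the 10 receptor genes, 3 rose and 0 fell by treatment alone (limma, and edgeR gave the same count, while DESeq2 also called *Bmpr1a* lower). *Tgfbr3*, betaglycan, a co-receptor without a kinase that presents TGF-β2 and binds inhibin, changed most. Its counts were 2216, 2242, 2575 and 2658 with vehicle and 4931, 4742, 5172 and 5129 with aldosterone. The lowest aldosterone library was far above the highest vehicle library (log2 fold change 1.05 ± 0.07 (SE, n = 4), limma adjusted p = 1.36e-08), and the call was kept without any single library. *Acvrl1*, the type I receptor ALK1, best known from endothelium, had 1201, 1141, 1075 and 921 with vehicle and 1609, 1724, 1377 and 1430.1 with aldosterone. These ranges also stood apart (log2 fold change 0.50 ± 0.09 (SE, n = 4), limma adjusted p = 8.69e-04), beside the endothelial marker sums given above. *Acvr1b*, the activin type I receptor ALK4, rose by 0.48 ± 0.09 (SE, n = 4, limma adjusted p = 0.00269) on the log2 scale, from a mean normalized count of 385 ± 49.6 to 533 ± 34.3 (SD).

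The kinase receptors of TGF-β itself did not pass the test. *Tgfbr2* had counts of 6181, 5851, 8978 and 9236 with vehicle and 5991, 6121, 8304 and 7859 with aldosterone. These values followed the sample number more than the treatment (log2 fold change -0.08 ± 0.14, limma adjusted p = 0.80). *Tgfbr1* was at 0.01 ± 0.09 (limma adjusted p = 0.969). Among BMP and activin receptors, *Bmpr2*, *Acvr1* and *Acvr2a* had log2 fold changes between -0.05 and 0.10, and *Bmpr1a* was at -0.14 (limma adjusted p = 0.108, and 0.0179 with the block). *Acvr2b* was separated between treatments, at 0.291 ± 0.0421 and 0.194 ± 0.0316 CPM per kilobase (SD, n = 4), but its mean normalized counts of 27.3 and 18.1 were low and it did not pass (limma adjusted p = 0.273).

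In the latency and processing group of 5 genes, only *Ltbp1*, which tethers latent TGF-β to the matrix, passed by treatment alone. Its log2 fold change was small, -0.19 ± 0.05 (SE, n = 4, limma adjusted p = 0.026), from a mean of 5097 ± 158 to 4454 ± 213 normalized counts (SD), and each aldosterone library was below each vehicle library. The call was lost in 6 of the 8 fits that left out 1 library (limma adjusted p up to 0.0785, without vehicle replicate 2), all except those without aldosterone replicate 1 or vehicle replicate 3. *Ltbp2* had 18926, 18850.3, 12577 and 13418 counts with vehicle and 22888, 19532, 13121 and 11491 with aldosterone. It differed between sample numbers far more than between treatments (log2 fold change 0.04 ± 0.18, limma adjusted p = 0.937). With the block, *Ltbp4* was higher (log2 fold change 0.28, limma adjusted p = 1.55e-04) and *Ltbp3* lower (log2 fold change -0.16, limma adjusted p = 0.0082). *Bmp1*, a procollagen protease in spite of its name, was at -0.01 ± 0.05 (limma adjusted p = 0.927).

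The 6 antagonists moved apart. *Fst*, follistatin, which binds activins and myostatin, had counts of 3335, 3397, 2796 and 2752 with vehicle and 5381, 5332, 4412 and 4765 with aldosterone. All 4 treated libraries were higher (log2 fold change 0.70 ± 0.08 (SE, n = 4), limma adjusted p = 1.70e-05). In the summed level per length of the activin β subunit and follistatin genes (*Inhba*, *Inhbb*, *Fst*, *Fstl3*), *Fst* made up 29.9% ± 2.52 with vehicle and 42.0% ± 2.55 with aldosterone, and *Inhba* 55.0% ± 2.27 and 38.3% ± 1.90 (SD, n = 4). *Nog*, noggin, which binds BMPs, had 622, 648, 391 and 419 with vehicle. With aldosterone it had 437, 406, 251 and 238, lower within each sample number but overlapping as a whole (log2 fold change -0.66 ± 0.20 (SE, n = 4), limma adjusted p = 0.0411). The call of *Nog* was lost when any 1 of the 8 libraries was left out (limma adjusted p between 0.0865 and 0.327) and with edgeR (adjusted p = 0.0524) or DESeq2 (adjusted p = 0.109), while the block gave a limma adjusted p of 2.41e-08.

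*Grem1*, gremlin 1, another antagonist of BMPs, had 5278, 4889.7, 3811 and 3380.3 with vehicle and 3675, 3985, 2468 and 2578 with aldosterone. As for *Nog*, the values were lower within each sample number (log2 fold change -0.46 ± 0.15 (SE, n = 4), limma adjusted p = 0.0673, and 5.12e-09 with the block). *Chrdl1*, a chordin-like BMP binder, was at -0.23 (limma adjusted p = 0.652, and 0.00777 with the block). It had 962, 878, 1469 and 1505 with vehicle and 694, 688, 1476 and 1398 with aldosterone, so the fall lay mostly in sample number 1. Its log2 fold change differed by 0.36 between sample numbers, 2 minus 1 (limma unadjusted p = 0.00266, adjusted p = 0.895). The follistatin-like gene *Fstl3* was at 0.43 (limma adjusted p = 0.159, and 7.60e-05 with the block). None of *Fstl3*, *Nog*, *Grem1* and *Chrdl1* passed with libraries averaged per sample number. *Bambi*, a decoy receptor, was at 0.08 ± 0.12 (limma adjusted p = 0.755).

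Of the 6 SMADs that carry the signal, *Smad3* fell and the others did not pass by treatment alone. *Smad3*, which works downstream of TGF-β and activin receptors, had counts of 2150.2, 2018, 2216 and 2276 with vehicle and 1520.4, 1346, 1608 and 1563 with aldosterone. The groups did not overlap (log2 fold change -0.52 ± 0.07 (SE, n = 4), limma adjusted p = 3.81e-05), and the call was kept without any single library. Its partner *Smad2* was at -0.14 ± 0.06 (limma adjusted p = 0.199, and 0.0432 with the block). *Smad4* had 2529, 2475, 2426 and 2505 with vehicle and 2675, 2528, 2711 and 2377 with aldosterone, overlapping (log2 fold change 0.05 ± 0.06, limma adjusted p = 0.689). Of the BMP SMADs, *Smad1* and *Smad5* were at 0.08 and -0.10, and *Smad9* at 0.34 (limma adjusted p = 0.253, and 5.77e-04 with the block).

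None of the 6 genes that restrain signalling passed by treatment alone, by limma, edgeR or DESeq2, with 1 of them under an unadjusted p of 0.05. *Ski* had 13139.5, 12705, 11979 and 12905 with vehicle and 12784, 11870.1, 11482 and 10228 with aldosterone, and the ranges overlapped (log2 fold change -0.13 ± 0.07, limma adjusted p = 0.269, and 0.0334 with the block). Its relative *Skil* was at -0.28 (limma adjusted p = 0.179, and 5.92e-04 with the block) and the inhibitory *Smad6* at -0.14 (limma adjusted p = 0.726, and 0.0309 with the block). *Smad7*, the inhibitory SMAD of TGF-β receptors, was at -0.09 ± 0.16, and the ubiquitin ligase genes *Smurf1* and *Smurf2* were at 0.07 ± 0.07 and -0.05 ± 0.05.

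Of the 4 ID genes, textbook targets of BMP signalling, 2 rose. *Id4* had counts of 2008, 1681, 1123 and 1052 with vehicle and 3720.2, 3339, 2544 and 2419.9 with aldosterone. Every treated library was higher, in spite of a difference between sample numbers (log2 fold change 1.06 ± 0.17 (SE, n = 4), limma adjusted p = 5.39e-04). Without aldosterone replicate 2 or vehicle replicate 4, the adjusted p of *Id4* was 0.0645 and 0.0557, and with libraries averaged per sample number *Id4* did not pass against vehicle or against spironolactone. *Id1* rose from a mean normalized count of 1430.1 ± 225 to 1859 ± 298 (SD, n = 4), with overlapping ranges (log2 fold change 0.38 ± 0.11 (SE), limma adjusted p = 0.0373). This call of *Id1* was lost when any 1 library was left out (limma adjusted p between 0.117 and 0.283). *Id3* had 6566, 5639, 4612 and 4719.9 with vehicle and 5861, 5918, 4959 and 4929 with aldosterone, which overlapped (log2 fold change 0.02 ± 0.10, limma adjusted p = 0.951). *Id2* was at 0.17 ± 0.11 (limma adjusted p = 0.426). In the summed level per length of the 4 genes, the share of *Id4* was 7.55% ± 1.07 with vehicle and 13.4% ± 1.61 with aldosterone, and that of *Id3* 60.7% ± 1.11 and 52.3% ± 1.55 (SD, n = 4), with no overlap between these treatments for either.

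**Figure D3:**
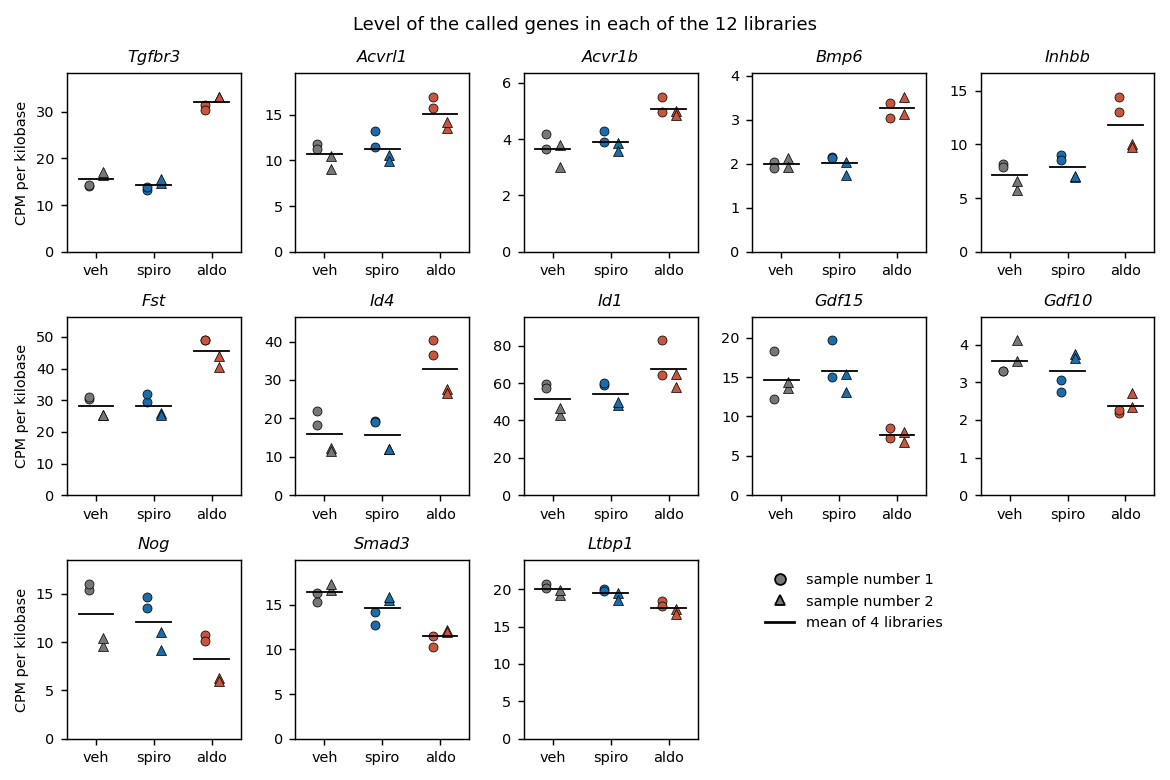
Level of the 13 called genes in each of the 12 libraries, in CPM per kilobase from 0, for vehicle, spironolactone and aldosterone. Points are libraries (circles for sample number 1, triangles for sample number 2) and lines are means of 4, and for *Id4*, *Inhbb* and *Nog* the sample numbers stand apart within each treatment while aldosterone shifts both.

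Spironolactone, the antagonist given at the same dose and for the same time, is the other reference for aldosterone. Aldosterone against spironolactone shares its aldosterone libraries with the comparison above, so the values are set side by side and are not independent. Against spironolactone, 7 of the 50 genes were higher and 3 lower (limma, 4.93% and 3.96% of all 27631 genes). In a limma fit of only the 15300 genes with a mean of 10 or more, 1400 were higher and 1171 lower, with the same calls among the 50. Higher were *Tgfbr3* (log2 fold change 1.16 ± 0.06, limma adjusted p = 4.51e-10), *Id4* (1.09 ± 0.16, limma adjusted p = 1.17e-04), *Fst* (0.70 ± 0.08, limma adjusted p = 9.27e-06), *Bmp6* (0.69 ± 0.10), *Inhbb* (0.57 ± 0.12), *Acvrl1* (0.42 ± 0.09) and *Acvr1b* (0.38 ± 0.08). Lower were *Gdf15* (-1.04 ± 0.11, limma adjusted p = 3.46e-06), *Gdf10* (-0.46 ± 0.11) and *Smad3* (-0.34 ± 0.08), where errors are SE with n = 4. *Tgfbr3*, *Id4* and *Gdf15* passed a log2 fold change of 1, which 1.38% of all genes did upward and 0.521% downward.

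*Tgfbr3* had 2131, 2209.8, 2361 and 2492 normalized counts with spironolactone and 5081, 4874, 5315 and 5269 with aldosterone in that table. *Gdf15* had 679.9, 887, 698 and 596 with spironolactone and 333, 387, 363 and 302 with aldosterone, again without overlap, and here aldosterone was the lower. *Smad3* was at 1927, 1705, 2101 and 2152 with spironolactone and at 1567, 1383, 1653 and 1606 with aldosterone, a narrower gap than that of *Tgfbr3*. Calls of *Smad3* and *Inhbb* were each lost in 7 of 8 fits that left out 1 library (limma adjusted p up to 0.112 and 0.141, both without spironolactone replicate 4), all except those without spironolactone replicate 2 and aldosterone replicate 4, respectively. Calls of *Acvrl1* and *Gdf10* were lost in 6 of 8 (up to 0.0975 and 0.115), all except those without aldosterone replicate 3 or spironolactone replicate 1. *Id1*, *Nog* and *Ltbp1* did not pass (limma adjusted p = 0.0587, 0.0575 and 0.123). With the sample number block, 11 of the 50 were higher and 9 lower (7.58% and 6.8% of all genes, those of low counts included). Among them were *Id1*, *Id2*, *Ltbp4* and *Smad9* upward and *Nog*, *Ltbp1*, *Grem1*, *Bmp4*, *Inhba* and *Skil* downward.

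Spironolactone alone against vehicle gave no call among the 50 genes or among all 27598 genes tested by limma (0%). At an unadjusted p under 0.05 there were 1251 genes, 1 of them in the pathway, *Smad3* (log2 fold change -0.18, 95% interval -0.33 to -0.03, limma adjusted p = 0.934). DESeq2 called 13 genes, edgeR 0 and the fit with the block 97, none of them among the 50. Of the 48 genes with a mean of 10 normalized counts or more, the 95% interval of the log2 difference lay within 0.5 on both sides for 44. The wider ones were *Acvr2b* (-1.17 to 0.12), *Bmp2* (-0.74 to 0.33), *Fstl3* (-0.09 to 0.57) and *Chrdl1* (-0.53 to 0.28). For the genes that rose most with aldosterone the intervals were -0.26 to 0.03 (*Tgfbr3*), -0.41 to 0.37 (*Id4*), -0.17 to 0.17 (*Fst*) and -0.07 to 0.38 (*Inhbb*).

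**Figure D4:**
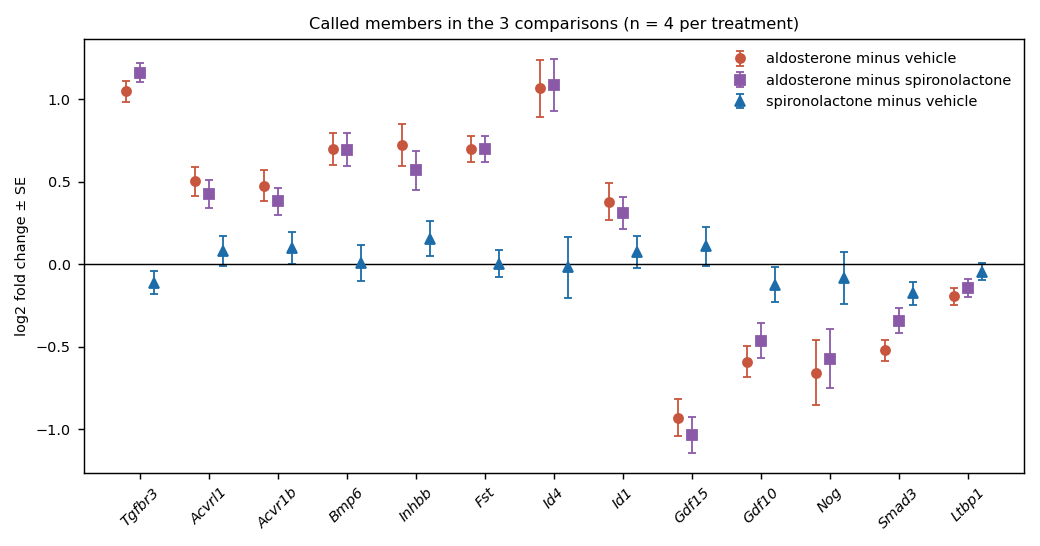
Log2 fold change ± SE of the 13 genes called against vehicle, in the 3 comparisons of treatments (n = 4 libraries each, every library used in 2 comparisons). Values of aldosterone against vehicle and against spironolactone lie mostly together, from 1.05 and 1.16 for *Tgfbr3* to -0.93 and -1.04 for *Gdf15*, with -0.52 and -0.34 for *Smad3*. Those of spironolactone against vehicle lie between -0.18 (*Smad3*) and 0.15 (*Inhbb*).

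Genes around the 50 were read from lists of further pathway members, chosen with earlier results known, and their counts stand beside 5.68% higher and 4.74% lower among all genes, or 9.65% and 8.09% among those whose mean was 10 or more. Of 14 measured ligands outside the set, *Bmp8a* rose (log2 fold change 1.61, limma adjusted p = 2.27e-04), from a mean of 24.9 to 76.2 normalized counts, and 2 fell. These were *Gdf11*, close to myostatin (log2 fold change -0.50, limma adjusted p = 2.57e-04), and the low *Gdf7* (-1.54, limma adjusted p = 0.0465). Of 11 other receptors and co-receptors, *Nrp1* and *Cd109*, both of which bind TGF-β, rose by 0.35 and 0.33 (limma adjusted p = 0.00102 and 0.00415), and the BMP type I receptor *Bmpr1b* fell by 0.69 on the log2 scale (limma adjusted p = 0.0219). Of these 3 receptor calls, 1 was left without aldosterone replicate 3 or 4 or vehicle replicate 1 or 2. Of 28 extracellular modulators, 3 rose and 3 fell (21.4% in all), and between 3 and 5 passed without 1 library, 3 of them without aldosterone replicate 2 or 4 or vehicle replicate 1, 3 or 4. *Nbl1*, a BMP antagonist of the DAN family, rose by about as much as *Tgfbr3*, from a mean of 3451 to 6905 normalized counts (log2 fold change 1.00, limma adjusted p = 2.49e-09), and *Sostdc1* (0.81, limma adjusted p = 0.0462) and the protease *Htra1* (0.36, limma adjusted p = 0.00236) also rose. *Htra3*, *Emilin1* and *Twsg1* fell by 0.45, 0.36 and 0.23 on the log2 scale (limma adjusted p = 0.00681, 0.00154 and 0.0118). Of 31 intracellular regulators 5 passed (16.1%), and 3 or 4 without 1 library, with 3 without aldosterone replicate 3 or 4 or vehicle replicate 1 or 4. The kinase gene *Hipk2* and *Wwp1*, a ubiquitin ligase related to the SMURFs, rose by 0.61 and 0.58 (limma adjusted p = 2.78e-06 and 4.58e-06), and the co-repressor gene *Tgif1*, the deubiquitinase gene *Usp11* and *Trim33*, whose product acts on SMAD4, fell by 0.39, 0.26 and 0.24 (limma adjusted p = 4.42e-04, 0.0451 and 0.0212).

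Known target genes of the pathway moved both ways. Of 40 TGF-β target genes, 4 of them in the set, 9 rose and 10 fell by limma, and 13 and 18 did with the sample number block. So 47.5% passed by treatment alone, against 9.65% higher and 8.09% lower among all genes whose mean was 10 or more. Both target lists were also chosen with earlier results of these data known, so their shares are a description and not a test. Some TGF-β targets, such as *Tgif1*, were also counted among the intracellular regulators. The median log2 fold change of the 40 genes was -0.14. The matricellular genes *Postn* (log2 fold change 1.97, limma adjusted p = 6.76e-10) and *Ccn2* (0.82, limma adjusted p = 8.15e-06) and the protease *Adam12* (0.79, limma adjusted p = 7.06e-05) rose, while *Ccn4*, *Tgfbi* and the collagen receptor subunit *Itga11* fell by 0.93, 0.87 and 0.86 on the log2 scale (limma adjusted p = 5.49e-06, 2.19e-04 and 2.93e-08). The smooth muscle actin gene *Acta2* was at -0.33 (limma adjusted p = 0.204, and 1.75e-07 with the block), and *Tagln* was at -0.25 (limma adjusted p = 0.384, and 0.134 with the block). Of 23 BMP target genes, 10 of them in the set, *Id1* and *Id4* rose and *Nog*, *Sp7*, *Hes1* and *Runx2* fell by limma, and 3 were higher and 12 lower with the block. These 6 calls (26.1% of the list) were not stable, since between 0 and 3 of the list passed when 1 library was left out, 0 of them without vehicle replicate 4, and 0 passed with libraries averaged per sample number. The median log2 fold change of the 23 genes was -0.28. *Sp7* and *Runx2*, regulators of bone formation, were at -0.90 and -0.29 (limma adjusted p = 0.0129 and 0.0112), and the Notch target *Hes1* at -0.70 (limma adjusted p = 0.00311).

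**Figure D5:**
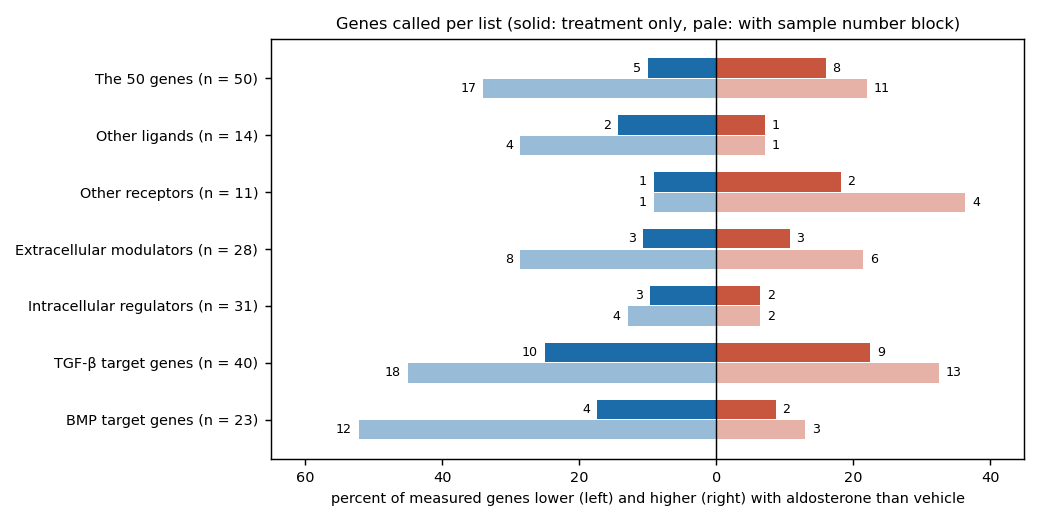
Percent of measured genes in each list called lower (left, blue) and higher (right, red) with aldosterone than with vehicle, with the number of genes at each bar. Solid bars are limma by treatment alone and pale bars the fit with the sample number block, where the 40 TGF-β target genes went from 10 lower and 9 higher to 18 and 13.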

How the data were processed

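The authors deposited, for each pair of treatments, a table of normalized counts (signal values, reads per gene scaled by 1 size factor per library), beside log2 fold changes and p-values of their own, which were not used. Reads were aligned with HISAT2 2.0.5 and counted with featureCounts 1.5.0-p3 per the labels, which give mm39, while the methods of the study name mm9. Strand use was not given in the sources used here.

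Each table was tested with limma 3.58.1 (R 4.3.3), with a variance trend, on log2(normalized count + 1) for every gene, with treatment as the only factor and Benjamini-Hochberg adjustment over the table. The threshold was an adjusted p of 0.05. Fold changes on this scale understate changes of low genes. All values (100%) were whole multiples of a step per library (tolerance 0.001), which gave the reads used for edgeR 4.0.16, DESeq2 1.42.0 and CPM per kilobase (TMM factors). The fits were tested on simulated data. The simulated libraries were independent and held no difference between sample numbers, so this test cannot decide between the fits with and without the block.

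Same-numbered libraries of different treatments deviated together (Pearson's r across genes between 0.135 and 0.291 in all 24 pairs), the pairing coming from the sample numbers in the labels. Named with values per library are genes that passed against vehicle with a log2 fold change of 0.5 or more in size and the highest of each role, and, from other lists, up to 3 genes in each direction. *Inhba*, *Bmp4*, *Tgfb2* and *Chrdl1* are also given per library, outside this rule. Alternatives were a pseudocount of 0.5, a mean of at least 10, TMM or upper-quartile scaling, edgeR, DESeq2, blocks, averaged or single sample numbers, and leaving out each library. The members and lists were chosen with earlier results of these data known.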

Additional observations from a re-analysis of the deposited data

How the results depend on the processing

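The direction of every called gene of the pathway was kept in every alternative run. A pseudocount of 0.5, TMM and upper-quartile scaling kept all 13 calls against vehicle and all 10 against spironolactone. A mean of at least 10 and DESeq2 lost *Nog* and added *Bmpr1a* against vehicle, and edgeR and a block on the biological replicate number lost *Nog*. DESeq2 called 5 of the 50 lower against spironolactone and 13 genes of the table for spironolactone against vehicle.

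With the replicate block on the sample number, 17 of the 50 fell against vehicle, and 11 rose and 9 fell against spironolactone. Of all genes, 4563, 3974 and 97 were then called against vehicle, against spironolactone and for spironolactone against vehicle. In the lists, 5 ligands, 5 receptors, 14 extracellular modulators, 31 TGF-β targets and 15 BMP targets passed with the block.

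With libraries averaged per sample number (2 against 2), 3 rose and 2 fell against vehicle with 1 past a log2 fold change of 1, and 2 rose and 1 fell against spironolactone, with 801 and 548 genes called in all and 0 other receptors, 1 extracellular modulator, 2 intracellular regulators, 10 TGF-β targets and 0 BMP targets. Fits with sample number 1 alone (2 libraries per treatment) called 0 of the 50 in both comparisons, 0 in every list, and 17 and 4 genes in all. With sample number 2 alone, 4 rose and 2 fell against vehicle with 1 past the fold, 4 rose and 1 fell against spironolactone, and 888 and 943 genes were called in all, with 1 ligand, 1 receptor, 2 extracellular modulators, 0 intracellular regulators and 8 TGF-β targets. These fits have fewer libraries. A term for treatment by sample number, chosen after seeing the data, was past an adjusted p of 0.05 (limma) for 4 genes in each table and for 0 of the 50, of which 4 and 2 had an unadjusted p under 0.05. These were *Tgfb2*, *Tgfbr2*, *Chrdl1* and *Ltbp2* against vehicle, and *Tgfb2* and *Chrdl1* against spironolactone.

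Leaving out 1 library at a time, between 5 and 7 of the 50 rose and between 3 and 4 fell against vehicle, with 1 to 3 past the fold and 1766 to 2246 genes called in all. Against spironolactone between 5 and 6 rose and 1 to 2 fell, with 2 to 3 past the fold and 1565 to 1865 genes in all. The lists gave 2 to 3 ligands, 1 to 3 receptors, 3 to 5 extracellular modulators, 3 to 4 intracellular regulators, 14 to 16 TGF-β targets and 0 to 3 BMP targets. The cause of these shifts was not tested. *Mstn* and *Bmp7* were too low to compare at this depth. In 39 groups of 4 libraries of called genes, 0 held a value far from the others by Dixon's test. With 4 values, that test flags only a gap that takes up most of the range. Where sample numbers stand apart, as for *Id4*, *Inhbb* and *Nog*, the gap between same-numbered libraries is a small part of the range. The test therefore cannot decide whether a library was unusual, and no conclusion is drawn from it.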
